A study of Mus musculus with 9 samples.

Results

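The promoters described here carried an H3K27ac island in naive CD8+ T cells that lacked Tcf1 and Lef1 and carried none at that place in the corresponding WT cells. An island is a stretch of the genome in which H3K27ac ChIP-seq reads were enriched, as called by SICER. A dKO island was a member when it lay on chromosomes 1 to 19, shared not even 1 bp with an island of the WT list, and had a transcription start site (TSS) of any protein-coding gene at a distance of at most 1 kb (mm9, GENCODE vM1). The rule found 1626 members among 15621 dKO promoter islands, a share of 10.4% (Wilson 95% interval 9.94 to 10.9%). They made up 7.58% of the 21448 autosomal dKO islands without WT overlap. The island lists themselves chose these members, so the presence of the mark in dKO and its absence in WT are a description and not a result.

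GFP+ TCRbeta+ CD62Lhi CD44lo-med CD8+ T cells were sorted from mouse spleens of a C57BL/6 background, from animals of both sexes aged 6 to 12 weeks. WT mice were hCD2-Cre+ Rosa26GFP Tcf7+/+ Lef1+/+ and dKO mice were hCD2-Cre+ Rosa26GFP Tcf7 fl/fl Lef1 fl/fl, so that both groups carried the Cre transgene and the GFP reporter. Cre was driven by human CD2 sequences and works mainly late in the T cell lineage, and GFP marked the cells in which it had acted. The H3K27ac data came from 4 WT and 3 dKO samples with 1 input each (the labels give the dKO genotype as Tcf1-/-Lef1-/-), but the files hold 1 island list per genotype, called on pooled replicates. No spread between replicates could therefore be computed and no p-value is given. Intervals cover counting error only, and sequenced reads are not independent molecules. The WT list gives no count outside its islands, so a member is a place where no WT island was called, not a place shown to be free of WT reads, and no fold change could be formed.

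H3K27ac is the acetylation of lysine on the tail of histone H3 that marks active promoters and enhancers. It is laid down mainly by p300 and CBP and is removed by histone deacetylases. Tcf1 (encoded by Tcf7) and Lef1 are HMG-box factors that bind the TCF/LEF motif, act with beta-catenin or with Groucho/TLE corepressors, and are needed for the development and identity of T cells. Mouse promoters fall broadly into CpG-rich promoters, which are often active in many tissues, and CpG-poor promoters, which are more often tissue-restricted.

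To show what these promoters look like, the 250 bases before the annotated start are printed for 3 of the 4 members with the most counts at genes without any WT promoter island (H2-K1, Edn2, Slc45a3) and, also at genes without any WT promoter island, for the members with the most counts at genes upregulated in dKO cells (Prss2, 2900026A02Rik). These 5 windows were chosen after their values were seen. They were read from mm9 at chr17:34137279-34137528 (minus strand), chr4:119833561-119833810 (plus strand), chr1:133866936-133867185 (plus strand), chr6:41471536-41471785 (plus strand) and chr5:113592372-113592621 (minus strand). All lie upstream of the gene and overlap no annotated exon. Each is written 5′ to 3′ in the direction of the gene, and capitals mark matches to the motifs described further on.
H2-K1: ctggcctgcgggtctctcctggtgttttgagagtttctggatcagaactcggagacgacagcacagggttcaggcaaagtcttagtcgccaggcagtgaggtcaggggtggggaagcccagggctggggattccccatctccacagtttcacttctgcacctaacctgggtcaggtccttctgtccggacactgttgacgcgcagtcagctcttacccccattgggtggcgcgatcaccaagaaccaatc
Edn2: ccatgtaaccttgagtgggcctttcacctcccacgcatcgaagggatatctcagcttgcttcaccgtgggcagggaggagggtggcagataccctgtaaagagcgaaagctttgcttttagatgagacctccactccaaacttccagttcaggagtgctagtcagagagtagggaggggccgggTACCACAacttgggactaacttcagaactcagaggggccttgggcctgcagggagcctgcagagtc
Slc45a3: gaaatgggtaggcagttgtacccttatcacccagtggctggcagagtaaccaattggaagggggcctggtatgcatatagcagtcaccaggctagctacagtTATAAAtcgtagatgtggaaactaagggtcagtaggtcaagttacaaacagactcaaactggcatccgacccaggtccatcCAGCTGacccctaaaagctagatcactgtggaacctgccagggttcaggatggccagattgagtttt
Prss2: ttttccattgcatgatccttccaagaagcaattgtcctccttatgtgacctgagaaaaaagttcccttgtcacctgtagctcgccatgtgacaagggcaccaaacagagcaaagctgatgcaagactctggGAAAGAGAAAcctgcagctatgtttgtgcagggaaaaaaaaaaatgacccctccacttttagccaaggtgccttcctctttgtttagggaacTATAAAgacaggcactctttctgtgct
2900026A02Rik: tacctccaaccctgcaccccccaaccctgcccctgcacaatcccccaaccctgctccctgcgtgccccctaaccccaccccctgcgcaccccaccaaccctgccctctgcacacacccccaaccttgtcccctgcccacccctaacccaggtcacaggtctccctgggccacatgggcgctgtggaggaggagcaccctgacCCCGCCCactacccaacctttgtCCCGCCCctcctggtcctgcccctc
The H2-K1 window held no match. In Edn2 the capitals mark a RUNX motif (TGTGGTN) read on the opposite strand. The Slc45a3 window held a TATA motif (TATAAA) and an E-protein E-box (CAGCTG). The Prss2 window held an IRF motif and, 27 bases before the start, a TATA motif. The capitals in 2900026A02Rik mark 2 KLF/SP motifs (GGGCGGG), both on the opposite strand. A match describes the letters and is not evidence of binding.

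The WT islands held 82668007 counts in 65563 islands and the dKO islands 57665047 counts in 82213 islands, so the WT total was 1.43 times the dKO total. dKO counts are given as deposited unless said to be scaled to the WT total. All 8 markers of mature CD8 T cells and all 5 of the naive state had promoter islands in both lists. Their levels differed, in CPM (counts per 1000000 island counts of the list). With islands that genes share counted once, mature CD8 markers summed to 1053 CPM in WT and 880.0 CPM in dKO, and naive markers to 1650 and 1020 CPM. Cd8a had 362 CPM in WT and 135 in dKO and S1pr1 329 and 89.9 CPM, while Klf2 had 442 and 520.0 CPM and Cd3e 82.2 and 215 CPM. Tcf7 had 50113 counts in WT and 18207 in dKO (606 and 316 CPM), and Lef1 had 53027 and 11100 (641 and 192 CPM). These islands do not check the deletion, because they report acetylation at the promoters and not the floxed exons. The shared promoter islands had a median of 266 counts per kb in the WT list and of 231 in the dKO list after scaling. The part of this difference, and of the difference in totals, in the choice of members was not tested.

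The members were weak islands compared with other dKO promoter islands. Wide dKO islands touch a WT island more readily, so the rule itself favours narrow members with few counts. The contrast in strength is therefore a description and not a result. The members had a median of 226 counts (quartiles 158 and 363, range 44 to 12831) over a median width of 2.6 kb (range 0.2 to 45.8 kb). The median density was 87.1 counts per kb. The 13995 dKO promoter islands that overlapped a WT island had a median density of 161 counts per kb and a median of 1135 counts. The 19822 dKO-only islands away from promoters had a median density of 87.5 counts per kb, so that the members stood beside them and not beside the shared promoters. In all, the members held 516387 counts, or 0.895% of the dKO counts, over 5635 kb. When dKO counts were scaled to the WT total and each member was ranked among WT islands of the same width, the median member stood at percentile 31.6. Of the 1625 members that could be ranked, 27.7% (25.6 to 29.9%) stood above the WT median and 10.4% (9.01 to 12%) below the 5th percentile. Of the shared promoter islands, 78.4% (77.7 to 79.1%) stood above the WT median. The mirrored rule found 778 WT-only promoters, 5.26% (4.92 to 5.64%) of 14780 WT promoter islands, with a median of 135 counts per kb.

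**Figure D1:**
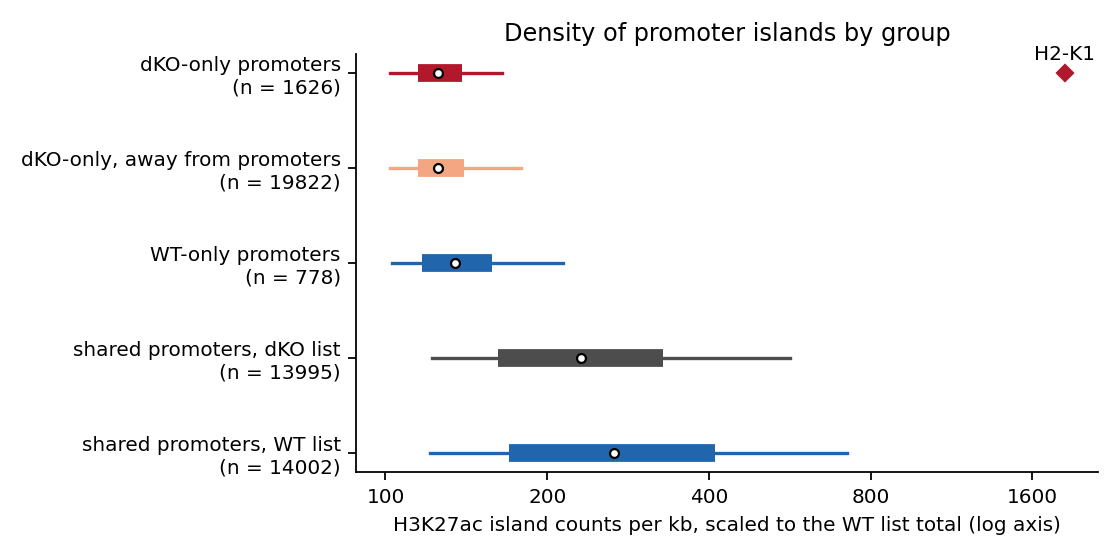
Island density in H3K27ac counts per kb, with dKO counts scaled to the WT total, on a log axis. Points are medians, thick bars quartiles and thin lines the 5th to 95th percentile of the islands in a group. The dKO-only promoters have a median of 125, beside 125 for dKO-only islands away from promoters, 135 for WT-only promoters and 231 for shared promoters of the dKO list, and H2-K1 stands apart at 1839.

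Most members lay close to WT acetylation. The median space to the nearest WT island was 4.2 kb, with 53.4% (51.0 to 55.8%) of members within 5 kb, 74.1% (71.9 to 76.2%) within 10 kb and 97.4% (96.5 to 98.1%) within 50 kb. This was not particular to them, since dKO-only islands away from promoters had a median space of 4.0 kb. WT-only promoters had a median space of 6.0 kb to the nearest dKO island. The member farthest from a WT island was Mmp16 at 1650 kb. Just inside the overlap limit were 8 members that abutted a WT island with no base between them, among them Dgcr6 (290 counts), Psma7 (273 counts) and Gm17345 (214 counts). Just outside it were islands that shared 200 bp with WT, such as those of Akap1 (1230 counts), Ets2 (552 counts) and Cadm3 (495 counts). At the TSS limit, Rtn4 (998 bp from a TSS), Kif24 (990 bp) and Ift140 (985 bp) were just inside, and Npdc1 (1008 bp) and C4b (1010 bp) were among those just outside. Of the members, 24.2% (22.2 to 26.3%) had a dKO island that overlapped WT within 1 kb, beside 52.0% of the shared promoter islands.

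The members lay within 1 kb of TSSs of 1413 of 21281 autosomal protein-coding genes (6.64%), and most of these genes already carried a WT promoter island elsewhere. For 1056 members (64.9%, 62.6 to 67.2%) a WT island lay at another TSS of the gene, at a median of 18164 bp (quartiles 9278 and 36985 bp) from the member's TSS. For 106 members (6.52%, 5.42 to 7.82%) a WT island lay within 1 kb of the very same TSS without touching the member. This share ran from 1.67% with WT islands at least 1 kb away to 30.2% when an island counted as shared only with at least 50% of its width covered. The remaining 464 members (28.5%, 26.4 to 30.8%) lay at genes without a WT island at any TSS. Of the 972 member genes with a WT promoter island, 953 (98.0%, 97.0 to 98.7%) also had a dKO island at a TSS that was marked in WT. Member genes had a median of 5 annotated TSS positions, beside 2 for all genes. Of the WT-only promoters, 53.2% (49.7 to 56.7%) lay at genes without a dKO promoter island.

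The TSSs at the members were often internal or non-coding starts. The member covered the TSS itself in 67.2% (64.8 to 69.4%) of cases, beside 93.6% (93.2 to 94.0%) of shared promoter islands. A transcript annotated as protein-coding started there in 51.3% (48.9 to 53.7%) of members and in 88.8% (88.2 to 89.3%) of shared islands. The TSS was the 5′-most of its gene in 28.2% (26.1 to 30.5%) and 71.6% (70.8 to 72.3%), respectively. Promoters of 2 or more genes made up 1.05% (0.654 to 1.67%) of members and 15.5% (14.9 to 16.1%) of shared islands. Shared promoter islands were wider, with a median of 6.2 kb beside 2.6 kb for members. A wider island covers a TSS or reaches a further gene more readily, and the part of width in these shares was not tested. The 3 kinds of member differed in their coding starts and 5′-most TSSs, but the classes partly fix this. A WT island at another TSS needs a gene with more than 1 TSS, and an only TSS is 5′-most by definition. Member genes with a WT promoter island had a median of 7 annotated TSS positions, and those without one a median of 1. At genes with a WT island at another TSS, 33.9% (31.1 to 36.8%) of the TSSs started a coding transcript and 4.64% (3.53 to 6.08%) were 5′-most. At genes without any WT promoter island, 90.9% (88.0 to 93.2%) started a coding transcript and 82.5% (78.8 to 85.7%) were 5′-most. Their densities were nearly the same, with medians of 85.9 and 89.4 counts per kb.

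Zap70 and Cd4 show members of the internal kind at T cell genes. At Zap70, which encodes the kinase recruited to the activated T cell receptor, a member of 490 counts at chr1:36833001-36838000 lay at an inner TSS, 1.0 kb from a WT island, and the gene's promoter islands summed to 8842 counts in WT and 6839 in dKO, or 107 and 119 CPM, so that the direction turns with the scale. At Cd4, the coreceptor of helper T cells, a member of 442 counts at chr6:124820201-124825000 lay 2.0 kb from a WT island. Its TSS was not 5′-most and started no coding transcript. All Cd4 promoter islands summed to 1168 counts in WT and 1730 in dKO (14.1 and 30 CPM), the member included. Cd4 is on the study's list of upregulated genes, yet the study reports that the CD4 coreceptor was not derepressed in these dKO cells. Foxp1, a forkhead factor of quiescent T cells, had a member of 746 counts at chr6:98985401-98993600, 0.8 kb from a WT island. Gzmk, a granzyme, had 215 counts at chr13:114013001-114015400, where a WT island also lay within 1 kb of the same TSS.

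H2-K1, which encodes a classical MHC class I heavy chain and is transcribed in nearly all nucleated cells, stood apart from all other members. Its dKO island at chr17:34131801-34141800 covered the gene with 12831 counts, a density of 1283 counts per kb. The next densest member had 220 counts per kb, but from 44 counts over 0.2 kb, the lowest count of all members. Among members of at least 1000 bp, Gm5373 followed at 182 counts per kb. No WT island overlapped the H2-K1 island, and the nearest lay 5.2 kb away. Only 4 autosomal dKO-only islands exceeded 500 counts per kb, and H2-K1 was the only promoter among them. Neighbouring promoters were marked in both lists, with 4009 WT and 2739 dKO counts at H2-Ke6 (48.5 and 47.5 CPM). Of 38 MHC and antigen presentation genes on a list of symbols, 27 had promoter islands in both lists, and 2 had them in dKO only (H2-K1, and H2-T9 through an island that reached a WT island farther away). H2-D1, another classical class I gene, had 6817 WT and 4563 dKO counts (82.5 and 79.1 CPM). B2m, the class I light chain, had 6145 and 2865 counts (74.3 and 49.7 CPM). Class I genes are close paralogs and only uniquely mapped reads were kept, so both the dKO count at H2-K1 and the lack of a WT island there are uncertain. Whether that lack belongs to the WT list, to mapping or to the cells cannot be told apart with these lists. Without it, the largest member count was 5463 and the medians of width and density stayed at 2.6 kb and 87.1 counts per kb.

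Edn2, which encodes the vasoactive peptide endothelin-2, had the second highest count and the widest island. The island at chr4:119810801-119856600 spanned 45.8 kb with 5463 counts (119 counts per kb), and the nearest WT island ended 19.6 kb away. Upstream lies Hivep3, which encodes a large zinc finger protein and was on the list of genes upregulated in dKO cells. Hivep3 had 2 members at inner TSSs, of 1006 counts at chr4:119483801-119490600 and of 940 counts at chr4:119430601-119437400. Its body held islands in both lists, up to 8728 counts over 45.2 kb in WT and up to 31604 counts over 137.4 kb in dKO. Beyond its start, Guca2a and Guca2b, which encode the gut peptides guanylin and uroguanylin, had members of 1204 and 535 counts. In these 5 members the dKO density lay between 111 and 148 counts per kb. A dKO island that overlapped WT lay 600 bp from the Edn2 island.

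**Figure D2:**
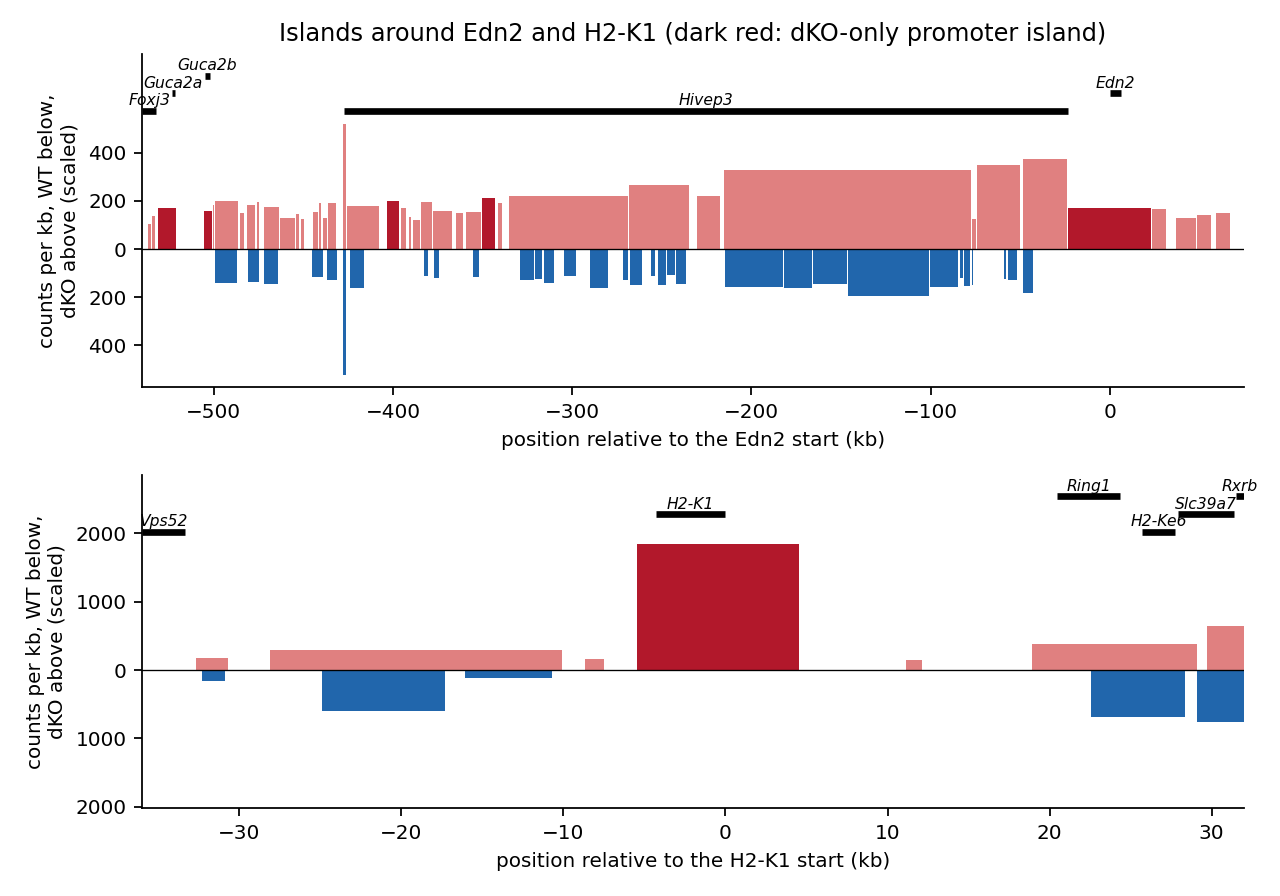
H3K27ac islands around Edn2 (top) and H2-K1 (bottom), by position in kb from the gene's start along the plus strand. Bar height is counts per kb, with dKO above the axis (scaled to the WT total, light red, members in dark red) and WT below it (blue), and black lines are genes. The Edn2 island follows the dKO islands over Hivep3 and has no WT island beneath it, and the H2-K1 island reaches 1839 scaled counts per kb with none in WT.

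The other members with the most counts were broad islands of modest density. BC032203 had 2321 counts over 19.8 kb at chr17:46962401-46982200. Slc45a3, a solute carrier, had 2250 over 19.8 kb at chr1:133863001-133882800. Tmem204, which encodes a membrane protein, had 2009 over 21.0 kb at chr17:25213201-25234200, and Cdsn, which encodes corneodesmosin of the skin barrier, 1829 over 19 kb at chr17:35683201-35702200. None of these 4 genes had a WT promoter island, yet WT islands lay 0.2 to 4.6 kb away. Txndc5, an endoplasmic reticulum disulfide isomerase (2234 counts), Ptges, a prostaglandin E synthase (2192 counts), Ergic1, an ER to Golgi transport protein (1962 counts), and Lrrk1, a leucine-rich repeat kinase (1955 counts), had a WT island at another TSS. The density of these 8 members lay between 90.6 and 123 counts per kb, beside the median of 87.1 over all members. Ranked among WT islands of their width, they stood between percentile 4.92 (Cdsn) and percentile 38.5 (Txndc5).

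Among the 441 genes that had a member and no WT promoter island, 152 (34.5%, 30.2 to 39.0%) nevertheless had a WT island elsewhere in the gene body. Their median was 1 annotated TSS position per gene. Of the 464 members at such genes, 37 (7.97%, 5.84 to 10.8%) lay inside the body of another gene that did have a WT promoter island. Several encode proteins of other tissues, and those named here were chosen after their values were seen. Loxl2, a collagen-crosslinking lysyl oxidase, had 1407 counts at chr14:69997001-70008200 (126 counts per kb), 37.6 kb from a WT island. Ptgis, the prostacyclin synthase, had 1044 counts at chr2:167031401-167043800. Ngfr, the p75 neurotrophin receptor, had 684 counts and a WT island 24.6 kb away, and Grin1, an NMDA receptor subunit, 663 counts and 12 kb. Wnt1, a Wnt ligand, had 613 counts over 5.2 kb at chr15:98619401-98624600. The Ptgis and Grin1 members lay at TSSs that were not 5′-most and started no coding transcript. The Wnt1 member lay at a coding start that was not 5′-most. Sphk1, the kinase that makes sphingosine-1-phosphate, had 729 counts, and Siglec1, the macrophage sialoadhesin, 611. Ranked among WT islands of the same width, Wnt1 stood at percentile 67.5, Loxl2 at 66.3 and Grin1 at 55.3. Below the WT median were Ngfr at percentile 42.3, Sphk1 at 28.5, Siglec1 at 7.99 and Ptgis at 5.43.

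By density, the leading members of at least 1000 bp after H2-K1 were smaller. Gm5373 had 255 counts over 1.4 kb (182 counts per kb), P2ry1, a receptor for ADP, 521 over 3.0 kb (174 counts per kb), and Sh3bp1, a GTPase-activating protein, 199 over 1.2 kb (166 counts per kb). Mmp16, a membrane-type matrix metalloproteinase, had 492 over 3.2 kb (154 counts per kb). Hivep3, AI317395, Mc5r (a melanocortin receptor), Rgs3 (a regulator of G protein signalling) and Elf3 (an epithelial ETS factor) followed at 148 counts per kb or less. P2ry1 and Mc5r were more than 30 kb from any WT island, at 32.8 and 31.2 kb. All but Rgs3, Hivep3 and Sh3bp1 lay at genes without a WT promoter island.

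In sequence, few member TSSs were CpG-rich. A window of 250 bases before and 50 bases after the TSS was called CpG-rich at a GC content of at least 50% and an observed to expected CpG ratio of at least 0.6. This held for 81 members (4.98%, 4.03 to 6.15%), beside 49.3% (48.5 to 50.2%) of shared promoter islands, 28.0% (25 to 31.3%) of WT-only promoters and 40.7% (40.3 to 41.1%) of all 67114 protein-coding TSS positions. The share of members was 8.22% with TSSs of coding transcripts only, 8.95% with a TSS limit of 2 kb and 13.5% with the rule of 50% covered width. Even among the 20016 TSS positions without an island in either list it held for 14.5% (14 to 15%). The share was 11.2% (8.65 to 14.4%) at genes without a WT promoter island and 2.46% (1.69 to 3.58%) where another TSS had a WT island. The CpG-rich members were somewhat denser, with a median of 99.2 counts per kb beside 86.9 for the rest. Sequence was not used by the rule, but the WT and dKO lists decide which TSSs remain without a WT island. TSSs of a gene can share bases, so the windows are not fully independent.

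**Figure D3:**
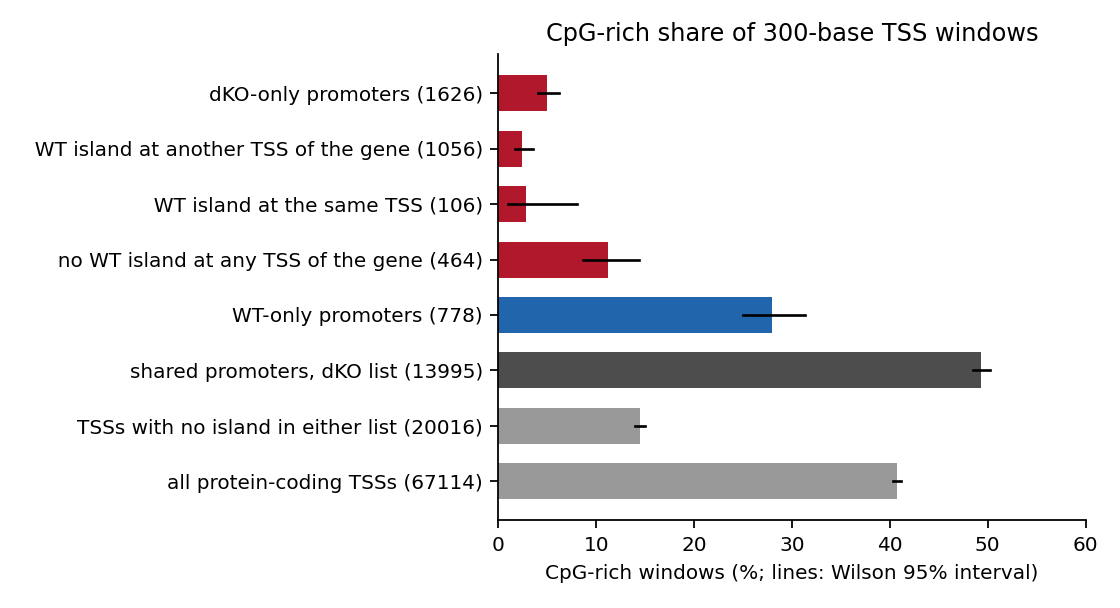
Share of 300-base TSS windows that were CpG-rich, in % of windows, with Wilson 95% intervals as lines and the number of windows in parentheses. Red bars are the dKO-only promoters and their 3 classes. They reach from 2.46 to 11.2%, below the 49.3% of shared promoters and the 28.0% of WT-only promoters.

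Short motifs were counted on both strands of the same windows. The TCF/LEF motif (CTTTGAT) was present in 4.80% (3.86 to 5.95%) of members, beside 2.84% (2.58 to 3.13%) of shared promoters, 4.16% (3.89 to 4.44%) of TSSs without any island and 3.13% (3 to 3.26%) of all TSSs. Motifs rich in CpG and GC were less frequent than at shared promoters, with the ETS motif (CCGGAAG) in 2.03% of members and 13.0% of shared promoters, and the KLF/SP motif (GGGCGGG) in 6.95% and 35.8%. Among all TSSs these held for 10.7% and 28.9%. AT-rich motifs were more frequent, with the TATA box (letters TATAAA) in 19.7% (17.9 to 21.7%) of members and 8.76% (8.30 to 9.24%) of shared promoters. The motif of GATA factors, spelled AGATAA, was in 14.6% and 8.22%. TSSs without an island came close to the members for TATA (19.4%), GATA (14.5%) and ETS (2.30%). RUNX (TGTGGTN), a motif of T cell enhancers, was in 20.5% (18.6 to 22.6%) of members, 14.9% (14.4 to 15.5%) of shared promoters and 18.2% (17.6 to 18.7%) of TSSs without an island. The AP-1 motif (TGANTCA) was in 9.59% of members, 5.96% of shared promoters and 9.13% of TSSs without an island. The E-protein E-box (CAGCTG) was in 16.9%, 16.8% and 16.5%. CREB (TGACGTCA) was in 3 members (0.185%) and 2.57% of shared promoters. The remaining shares in members were 1.35% for T-box (AGGTGTGA, 0.972% of shared promoters), 4.12% for IRF (3.60%), 5.66% for the E-box CACGTG (8.45%) and 0.0615% for NRF1 (1.41%). Motifs overlap in their letters and follow base composition, and these shares say nothing about binding.

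The members were spread over all autosomes. Their share of dKO promoter islands ran from 7.46% (5.46 to 10.1%) on chromosome 19 to 15.4% (13.7 to 17.4%) on chromosome 2, where 232 members lay, and chromosome 16 followed with 13.8% (11.3 to 16.8%). Members at genes without a WT promoter island took 2.60% and 2.02% of the dKO promoter islands of chromosomes 2 and 16, within the range of 1.59 to 4.97% over the chromosomes. The larger share there lay in members with a WT island at another TSS, 174 on chromosome 2 and 66 on chromosome 16. Chromosome 2 also had the most annotated TSS positions per gene (4.09, chromosome 16 had 3.51). Chromosomes 4 (4.02), 11 (3.94) and 5 (3.60) also had more than chromosome 16, with shares of members of 11.3%, 9.62% and 11.5%, and the part of the annotation in these shares was not tested. When members within 50 kb of each other were joined, 581 (35.7%) lay in 247 runs of at least 2. No such share was formed for other islands, and whether members cluster more than those was not tested. The largest runs had 5 members, such as those at Tanc1 and Wdsub1 (2501 counts over 101.6 kb), Cul1 and Ezh2 (715 counts), and a cluster of olfactory receptor genes on chromosome 7 (1324 counts over 69.0 kb). Tanc1, Abcc5, Ndrg3 and Gm15800 had 4 members each.

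**Figure D4:**
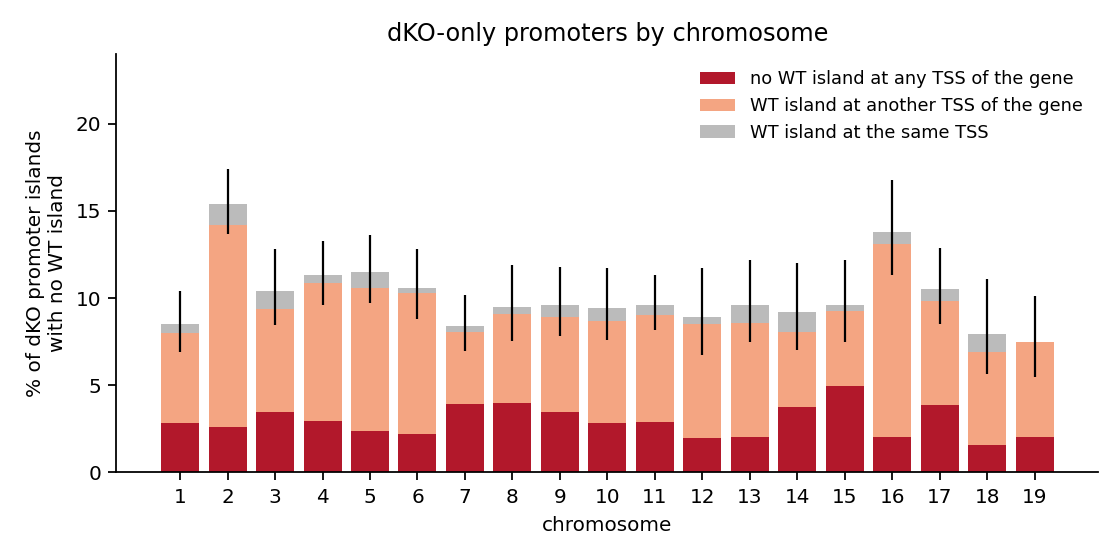
Share of dKO promoter islands with no WT island on each autosome, in %, stacked by class, with Wilson 95% intervals of the total as lines. Chromosomes 2 (15.4%) and 16 (13.8%) are highest, through the class with a WT island at another TSS of the gene (orange).

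Gene lists were described by the number of genes with a member. Lists of genes up- or downregulated in dKO cells and of lineage-enriched genes were taken by name from the study, and other lists were drawn up from textbook knowledge. The up- and downregulated lists were chosen on cells of the same genotypes, so they are not independent evidence of direction. Of 282 matched upregulated genes, 28 (9.93%, 6.96 to 14%) had a member, and of 236 matched downregulated genes, 18 (7.63%, 4.88 to 11.7%), beside 6.64% of all genes. The intervals of the lists overlap each other. Among genes with a WT promoter island, the shares were 8.21% (5.48 to 12.1%), 6.47% (3.96 to 10.4%) and 7.13% (6.71 to 7.57%). Few listed genes lacked a WT promoter island. Of these, 6 of 14 upregulated and 3 of 4 downregulated genes had a member, beside 441 of all 7648 such genes (5.77%, 5.27 to 6.31%). Nearly all genes on both lists already had a WT island, 268 and 232, respectively.

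The 6 upregulated genes that carried a promoter island in dKO only through a member were Prss2, 2900026A02Rik, Apol9b, Tbc1d4, Fcer2a and Serpina3g. Prss2, a trypsinogen gene within the T cell receptor beta locus, had 1087 counts at chr6:41471401-41480000 (126 counts per kb), 0.8 kb from a WT island. 2900026A02Rik had 538 at chr5:113587201-113592400. Apol9b, an apolipoprotein L gene, had 262 at chr15:77555201-77559000. Tbc1d4, a Rab GTPase-activating protein of glucose transport, had 3 members. The largest, of 213 counts, lay at a TSS that was not 5′-most and started no coding transcript. Fcer2a, the low-affinity IgE receptor CD23 of B cells, had 189 at chr8:3689401-3691800 and lay 1.0 kb from a WT island. Its TSS started a coding transcript but was not 5′-most. Serpina3g, a serine protease inhibitor, had 166 counts and the farthest WT island of these, at 166 kb. Ranked among WT islands of the same width, Prss2 stood at percentile 65.2 and 2900026A02Rik at 57.1, and below the WT median were Fcer2a at 23.5, Serpina3g at 11, Apol9b at 2.47 and the largest Tbc1d4 member at 0.95. The downregulated genes of the same kind were Zdhhc1, a palmitoyltransferase (470 counts), Slpi, a secreted protease inhibitor (358 counts), and Gas8, a ciliary protein. Upregulated genes with a WT island at another TSS included Rap1gap2 (1158 counts), St3gal2 (997 counts), Ptpn14 (548 counts), Anxa2 (503 counts), Cd4 (442 counts), Myo18a (442 counts) and Entpd1, the ectonucleotidase CD39 (224 counts). Downregulated ones included Cuedc1 (940 counts), Car12 (620 counts), Bai2 (439 counts) and Myo7a (366 counts).

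Lineage-enriched genes without a WT promoter island had members in 16 of 69 cases for gamma-delta T cells (23.2%, 14.8 to 34.4%), 8 of 41 for conventional dendritic cells (19.5%, 10.2 to 34.0%), 11 of 67 for monocytes (16.4%, 9.42 to 27.1%), 5 of 32 for NK cells (15.6%, 6.86 to 31.8%), 11 of 128 for granulocytes (8.59%, 4.87 to 14.7%), 5 of 59 for plasmacytoid dendritic cells (8.47%) and 2 of 32 for B cells (6.25%), beside the 5.77% of all genes. Over the whole lists the shares, beside 6.64% of all genes, were 10.5% for conventional dendritic cells, 9.12% for gamma-delta T cells, 9.01% for granulocytes, 8.73% for monocytes, 7.95% for plasmacytoid dendritic cells, 7.08% for NK cells and 4.94% for B cells. Among genes with a WT promoter island they were 5.92% for gamma-delta T cells, 5.56% for monocytes and 5.67% for NK cells, beside 7.13% of all such genes, and 8.05% for conventional dendritic cells and 9.13% for granulocytes. Of the pan-T list, 0 of 2 genes without a WT promoter island had a member. Effector CD8 (3 of 13) and Treg (3 of 12) genes were few, and the naive CD8 and CD4 lists had 0 of 1 and no such gene. Genes can stand on several lists. Examples named after their values were seen were Mmp9, a gelatinase of granulocytes, with members of 823 and 694 counts (137 and 116 counts per kb) at chr2:164763801-164769800 and chr2:164770401-164776400, Zbtb16, the factor PLZF of innate-like T cells (539 counts), Mrc1, the mannose receptor (157 counts), and Clnk, a mast cell and NK cell adaptor (403 counts). Thbd, thrombomodulin, had 283 counts.

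**Figure D5:**
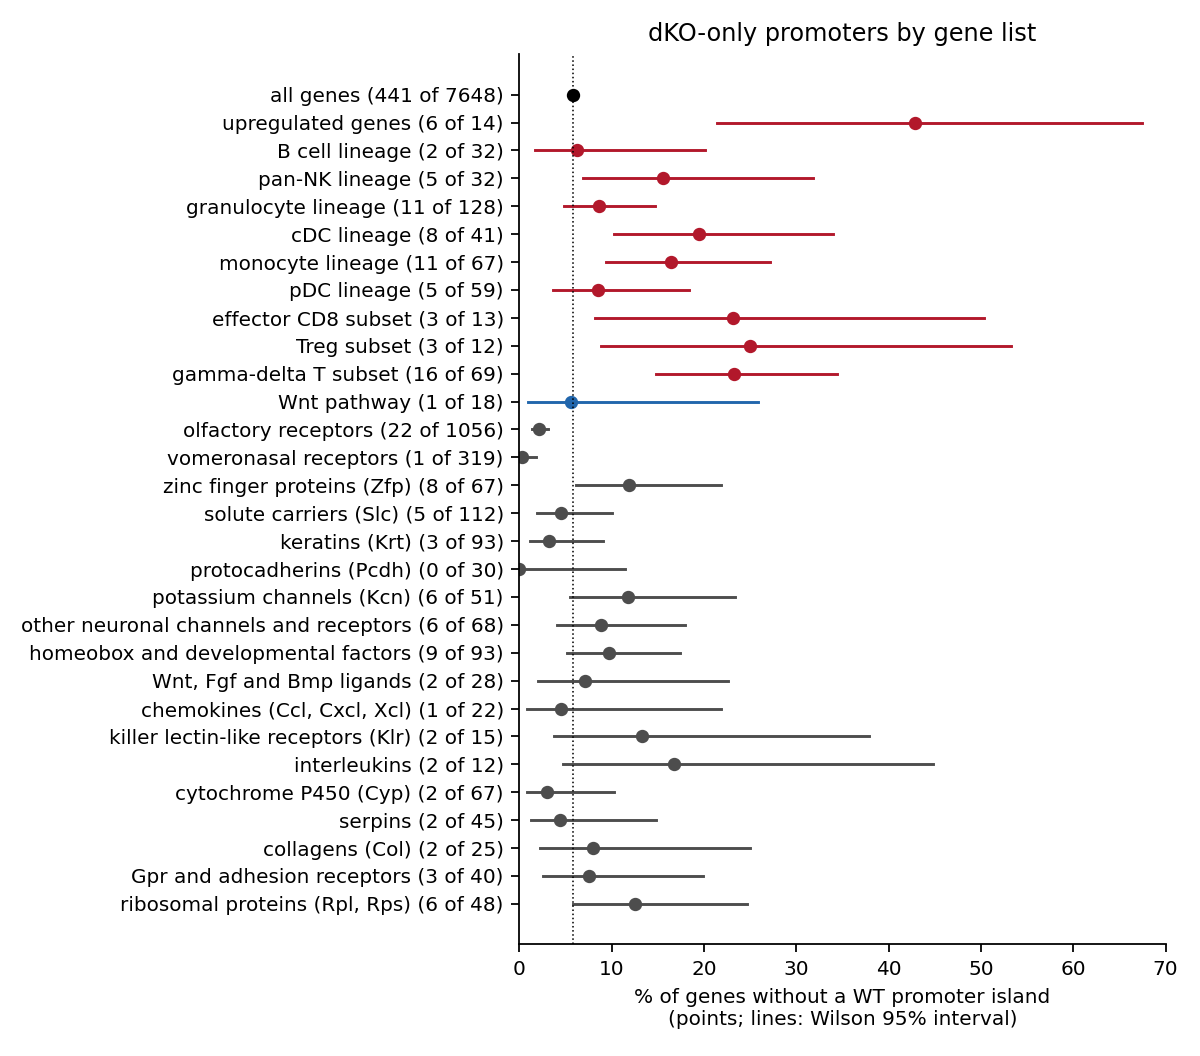
Share of genes without a WT promoter island that had a dKO-only promoter, in %, for lists with at least 10 such genes, with Wilson 95% intervals as lines and counts in parentheses. Red lists came from the study, blue from textbook knowledge and grey from gene symbols, and the dotted line is the 5.77% of all genes. Among the lists shown, upregulated genes (6 of 14) lie highest, followed by Treg (3 of 12), gamma-delta T (16 of 69) and effector CD8 genes (3 of 13). Vomeronasal receptors (1 of 319) lie near 0. Downregulated genes (3 of 4) and monocyte, macrophage and granulocyte genes (3 of 6) had larger shares but too few such genes to be shown.

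Markers of other cell types summed to more CPM in dKO for some types and in WT for others. The cells were sorted as TCRbeta+ CD8+, and no value for the purity of the sort was used here. S100a8 and S100a9, which encode the calprotectin subunits of neutrophils, had no WT promoter island and members of 147 counts (chr3:90472601-90474200) and 359 counts (chr3:90495201-90500000). The other granulocyte markers were in both lists, with 306 WT and 208 dKO counts at Csf3r (3.7 and 3.61 CPM) and 974 and 838 at Ly6g (11.8 and 14.5 CPM). The list summed to 15.5 CPM in WT and 26.9 CPM in dKO, but to 18.1 CPM in dKO without the members, whose WT value the rule sets to 0. B cell markers summed to 284 and 409 CPM. Ebf1 was without an island in both lists and Pax5 had one in dKO only, through an island that was no member. CD4 T cell markers summed to 59.0 and, without the member, 63.9 CPM. Monocyte and macrophage markers summed to 116 and 98.3 CPM, dendritic cell markers to 98.0 and 79.1 CPM, NK cell markers to 49.9 and 64.3 CPM, and erythroid markers to 23.9 and 42.6 CPM. Ncr1, Siglech and Hba-a1 had no island in either list, and Zbtb46 had one in WT only. The part of other cell types in the members was not tested, and in bulk chromatin more cells of a type and more acetylation per cell cannot be told apart.

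Of 48 Wnt pathway genes, 3 (6.25%) had a member, close to the share of all genes. They were Notum, a secreted enzyme that inactivates Wnt ligands (1096 counts at chr11:120519601-120529400, no WT promoter island), Axin2, a scaffold of the beta-catenin destruction complex and a common Wnt target (329 counts at chr11:108797801-108802000), and Lrp6, a Wnt coreceptor (265 counts at chr6:134418001-134421400). Axin2 and Lrp6 had a WT island at another TSS. None of 34 cell cycle genes and none of 15 regulatory T cell genes had a member, but the intervals reach 10.2% and 20.4% and so include the 6.64% of all genes. Of 138 genes on the study's Treg list, 10 (7.25%) had one. Among 18 helper T cell genes, Cd4 and Il5 did, and Il5, an eosinophil cytokine, had 159 counts at chr11:53532001-53533400. Il9, chosen after its values were seen, had a broad member of 1476 counts over 13.6 kb at chr13:56571801-56585400. The lists of 26 B cell genes (Fcer2a, and Sykb with 187 counts), 27 NK and cytotoxic genes (Gzmk), 16 dendritic cell genes (Tcf4, 120 counts), 11 inhibitory receptor and Tox genes (Entpd1), 31 cytokine and chemokine receptors (Il15ra, 166 counts) and 25 naive T cell genes (Foxp1 and Zap70) had 1 or 2 members' genes each. The list of 25 monocyte, macrophage and granulocyte genes had 3, among them S100a8 and S100a9.

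The families differed in their shares. Olfactory receptors without a WT promoter island had members at 22 of 1056 genes (2.08%, 1.38 to 3.13%), vomeronasal receptors at 1 of 319, keratins at 3 of 93 and cytochrome P450 genes at 2 of 67. Homeobox and other developmental factors had them at 9 of 93 (9.68%, 5.18 to 17.4%), among them Dlx2 (896 counts at chr2:71376601-71385200), Nkx2-5 (478 counts) and Sox17 (182 counts), which were chosen after their values were seen. Potassium channels had them at 6 of 51 (11.8%, 5.51 to 23.4%). Zinc finger genes of the Zfp series had them at 8 of 67 (11.9%, 6.18 to 21.8%). The share of all such genes was 5.77%, which the homeobox and potassium channel intervals include. Over whole families the shares were 8.33% for homeobox factors, 7.61% for potassium channels and 5.03% for Zfp genes, beside 6.64% of all genes. Among genes with a WT promoter island they were 6.35%, 2.44% and 3.44%, beside 7.13%. Of 48 ribosomal protein symbols without a WT promoter island, 6 had a member, and all 6 carry pseudogene names.

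The regions that the study listed as differential were checked by position. A member is counted when it shares at least 1 bp with a listed region, and only listed regions were used. The study listed those it had linked to genes that changed in dKO cells, so these lists were chosen by gene expression and are not the full sets of differential regions. The listed dKO-prepotent super enhancers, of which there were 88, held 58 members (3.57%), beside 3.44% of the shared promoter islands. The 48 listed WT-prepotent ones held 23 members (1.41%), beside 1.99%. Among the members in dKO-prepotent super enhancers were Edn2, Lrrk1, Rap1gap2, Brpf3 (1158 counts) and Nrxn2 (1086 counts), and among those in WT-prepotent ones Atp8b2 (1152 counts), Tanc1 (881 counts), Sf3a1 (383 counts), Inpp5f (357 counts) and Tbrg4 (230 counts). The listed WT-specific hubs held 7 members (0.431%, beside 1.09% of the shared promoter islands), Atp8b2, Anxa2 and Pml among them. The listed dKO-specific hubs held 4 (0.246%, beside 0.757%; Gm9990 with 388 counts, 2610020H08Rik with 340, Gm4559 with 321 and Siglecg with 148). Of 4 clusters of differentially accessible sites, only the first overlapped a member, at Hivep3 (1006 counts), or 0.0615% of members, beside 50 shared promoter islands (0.357%).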

How the data were processed

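H3K27ac ChIP-seq was analysed in naive CD8+ T cells, 4 WT and 3 dKO samples with 1 input each. The authors checked reads with FastQC, aligned them to mm9 with Bowtie2 2.2.5, kept unique reads of mapping quality above 10, pooled replicates and called islands with SICER 1.1 (window 200 bp, gap 400 bp, FDR 0.01); removal of duplicates is not given in the sources used here. The deposited lists give each island's position and read count, in whole counts. Depth was taken as the summed island counts. Pooling hides the spread between replicates, and the window fixes widths in steps of 200 bp.

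Islands were compared with each other and with GENCODE vM1 TSSs (mm9) in Python 3.11.15 with pandas 2.3.3, NumPy 2.4.6, SciPy 1.17.1 and Matplotlib 3.10.9. The overlap and interval code was tested on simulated data. An island's lead TSS was the nearest one, preferring coding transcripts, and a gene without a WT promoter island where there was a choice. Sequences were read from the mm9 genome. The members and lists were chosen with earlier results of these data known. Genes were named by rule: the 10 members with the most counts, the 10 densest of at least 1000 bp, up to 20 of the upregulated and 5 of the downregulated list, up to 4 per textbook list, up to 5 per region list, and 3 on either side of each limit; others are said to be chosen after seeing values. Other TSS windows, TSS sets, overlap limits, joining and strength floors were tried. Columns of the authors' comparisons were not used. A few members' genes are not reported here.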

Additional observations from a re-analysis of the deposited data

How the results depend on the processing

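No paired analysis was possible because each list was called on pooled replicates and its columns carry no replicate number; for the same reason no replicate could be left out. Of 73 alternative shares and medians, 31 stayed within the interval of the value reported and 42 moved outside it. Of 24 alternative counts, which have no interval, 18 stayed within 1.5 times the count reported and 6 did not. None has a test. With TSSs of protein-coding transcripts only, the rule found 864 members at 815 genes, 6.46% of dKO promoter islands and 3.83% of genes, with shares of 5.67% for upregulated and 4.24% for downregulated genes, 8.22% CpG-rich windows and medians of 88.1 counts per kb for members and 171 for shared promoters. When an island counted as shared only if WT islands covered at least 50% of its width, there were 2517 members at 2270 genes (16.1% of islands, 10.7% of genes), 1330 WT-only promoters, 30.2% of members with a WT island at the same TSS and 13.5% CpG-rich windows, with medians of 310.0 counts, 90.0 counts per kb and, for shared promoters, 166. A TSS window of 500 bp gave 1341 members, 9.04% of islands, 5.67% of genes, 4.33% with a WT island at the same TSS and medians of 245 counts and, for shared promoters, 164 counts per kb. A window of 2 kb gave 2370 members, 13.2% of islands, 9.21% of genes, 16.9% with a WT island at the same TSS, 8.95% CpG-rich and medians of 207 counts and 150 for shared promoters. With WT islands required to lie at least 1 kb away, there were 1377 members, with 8.82% of islands, 5.66% of genes, 1.67% with a WT island at the same TSS and 159 for shared promoters. Joining islands within 1 kb gave 1146 members, 8.82% of islands, 4.94% of genes, 2.79% with a WT island at the same TSS, 3.39% of downregulated genes and medians of 240.0 counts, 85.6 counts per kb and 151 for shared promoters. With only islands of at least 3 CPM (counts per 1000000 island counts) there were 1115 members, 7.63% of islands, 4.69% of genes, 501 WT-only promoters and medians of 296 counts, 86.0 counts per kb and 164 for shared promoters. With 500 bp either side of the TSS, 3.51% of windows were CpG-rich. The number of members ran from 864 to 2517 over the alternatives, beside 1626, while members stayed less dense than shared promoters under every alternative. Every alternative still chose members by their overlap with WT islands, so the lower density is a description there too. The lists hold counts inside islands only, so a weak WT signal at a member could not be seen at this depth.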
